A study of Mus musculus with 6 samples.

Results

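The Hox, Meis and Pbx genes described here are 9 homeobox genes, Hoxa5, Hoxa7, Hoxa9, Hoxa10, Hoxb3, Hoxb4, Hoxb5, Meis1 and Pbx3, taken by symbol from a table of 15553 genes. All 9 were listed, and all 9 passed the filter of at least 1 RPKM in at least 3 libraries. RPKM is a read count scaled by exonic gene length and by library size. RNA was sequenced from hematopoietic stem cells sorted from the bone marrow of C57BL/6 mice aged 6 to 8 weeks. The 3 Yy1-KO libraries had the genotype Yy1f/f;Mx1-Cre, in which both copies of Yy1 are flanked by loxP sites. The 3 WT libraries carried Mx1-Cre alone, so the Cre transgene was present in every library. The Mx1 promoter responds to interferon and is active in many cell types, so deletion is not limited to stem cells. The protocol names a CD48- gate with and without CD150, whereas the source field names CD150+ cells only, and whether each library came from its own mouse is not stated. Where libraries share a mouse or a pool, the p-values reflect technical scatter only.

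HOX proteins are transcription factors that bind DNA through a homeodomain and are encoded in clusters along which gene order follows the order of expression in the embryo. In blood, genes of the A and B clusters are active in stem and early progenitor cells and are shut down as cells mature. MEIS and PBX proteins belong to the TALE class of homeodomain proteins and bind DNA jointly with HOX proteins, which raises the selectivity of binding. MLL-type methyltransferase complexes keep HOX genes active and Polycomb complexes keep them silent. YY1, a zinc-finger factor, is a mammalian relative of the fly Polycomb group protein Pleiohomeotic, and the study asked how its loss affects stem cell quiescence.

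Read totals over the listed genes, recovered from the RPKM values, were 19473175 to 21757055 in Yy1-KO and 15103000 to 18459988 in WT. Yy1 itself stood at 36.2, 16.6 and 28.5 RPKM in Yy1-KO replicates 1 to 3 and at 31.6, 42.3 and 52.1 RPKM in WT replicates 1 to 3. The library labelled Yy1-KO replicate 1 thus lay inside the WT range at the targeted gene, and "Yy1-KO" below means the libraries so labelled. Reads of exons outside the loxP sites would still count toward Yy1, and the labels do not say which exons were removed. WT replicate 3 was set apart from the other libraries by the leading principal component, which held 34.6% of the variance. The stem cell markers were all listed, with a summed level of 354 to 385 RPKM over the 9 genes in Yy1-KO and 508 to 579 RPKM in WT. Of the B cell markers, Cd79b was listed, at 9.15 to 21.4 RPKM in Yy1-KO and 13.3 to 28.6 RPKM in WT, and Cd79a, Pax5 and Ebf1 were not. Of the T and NK cell markers, Nkg7 and Klrb1c were listed, with a summed level of 3.99 to 9.11 RPKM in Yy1-KO and 4.76 to 18.0 RPKM in WT, and Cd3e, Cd3g and Cd8a were not.

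The promoter windows of Hoxa5 and Meis1 are printed because these are the members whose Yy1-KO and WT values did not overlap. Each runs from 250 bases before to 50 bases after the RefSeq start site (GRCm38.p6), 5′ to 3′ on the strand of the gene, which is the minus strand for both. Capitals mark GCCAT or its reverse complement ATGGC, the short core that YY1 binds. Hoxa5 lies at chr6:52204538-52204837 and Meis1 at chr11:19018920-19019219.
Hoxa5: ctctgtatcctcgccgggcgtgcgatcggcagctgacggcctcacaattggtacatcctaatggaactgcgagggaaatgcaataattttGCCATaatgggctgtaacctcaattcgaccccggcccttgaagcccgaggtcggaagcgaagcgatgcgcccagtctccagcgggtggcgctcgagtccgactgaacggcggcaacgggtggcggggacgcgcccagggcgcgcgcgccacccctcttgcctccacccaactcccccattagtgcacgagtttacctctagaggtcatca
Meis1: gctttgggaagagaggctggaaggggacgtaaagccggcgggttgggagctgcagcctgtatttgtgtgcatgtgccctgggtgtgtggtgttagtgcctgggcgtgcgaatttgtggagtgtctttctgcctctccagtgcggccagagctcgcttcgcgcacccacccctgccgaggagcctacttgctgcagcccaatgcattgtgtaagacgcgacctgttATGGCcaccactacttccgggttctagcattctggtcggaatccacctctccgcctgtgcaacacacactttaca
The core began 160 bases before the start site in the Hoxa5 window and 25 bases before it in the Meis1 window. RefSeq windows were matched for 6 of the 9 members, as 7 windows, and the core was also found for Hoxa7 and in 1 of the Hoxa10 windows, but in neither the Hoxa9 nor the Hoxb4 window. The end of the Hoxa7 window was found in no annotated Hoxa7 transcript, unlike the ends of the other windows, so its start site is uncertain. So short a motif is common, and 40.5% of all 32851 windows hold it. The longer YY1 motif GCCATNTT, present in 6.05% of all windows, was absent from the 7, as were the HOX and PBX motif TGATTNAT (3.22% of all windows) and the MEIS motif TGACAG (19.2%). All motifs were searched on both strands. The longer YY1 motif contains the core. A match describes letters and not binding.

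Levels of the members spanned a wide range, with Meis1 well above the rest. Meis1, the TALE partner of HOXA9 that stem cells need for their maintenance, averaged 62.3 RPKM over the 6 libraries and ranged from 52.9 to 74.8 RPKM. Its lowest value lay above the highest value of Hoxa7, 39.0 RPKM, so its lead exceeded the spread between libraries. Below it came Hoxa7 at 23.0, Hoxa9 at 18.0, Hoxa5 at 17.5, Hoxb4 at 10.4, Hoxa10 at 6.49, Hoxb3 at 3.50, Hoxb5 at 3.41 and Pbx3 at 2.41 RPKM. From Hoxa7 downward the ranges of neighbours in this order overlapped, so the order of neighbours is not settled by these libraries. The lowest values of Hoxa7 (13.4 RPKM), Hoxa9 (13.3 RPKM) and Hoxa5 (8.95 RPKM) lay above the highest of Hoxa10 (8.00 RPKM). They also lay above every value of Hoxb3, Hoxb5 and Pbx3.

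**Figure D1:**
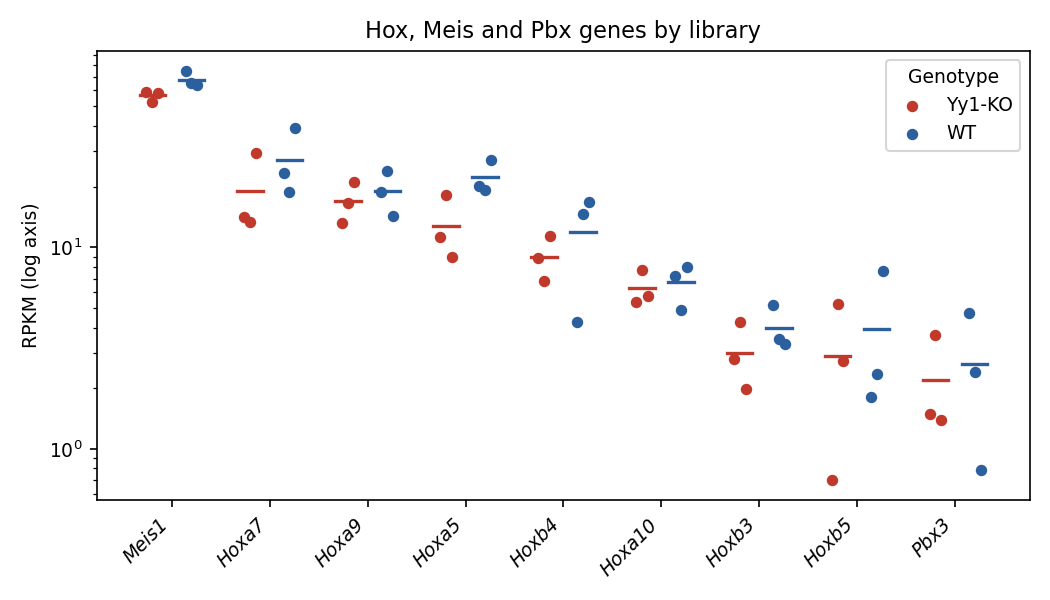
RPKM of the 9 genes in each library, on a log axis, with Yy1-KO points left of WT points and horizontal bars at the group means (3 libraries each). Meis1 lies above the other genes in every library, and its Yy1-KO points (52.9 to 59.0 RPKM) lie below its WT points (63.6 to 74.8 RPKM).

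None of the 9 members passed the test of Yy1-KO against WT. In limma on log2(RPKM + 0.5), with Benjamini-Hochberg adjustment over all 13179 tested genes, 0 of 9 members had an adjusted p under 0.05, beside 0% of all tested genes. Limma-voom on recovered reads called 0 of 9 members, beside 0.0458% of the genes it tested, and the authors' deposited table called 0 of 9, beside 0.154% of its genes. At an unadjusted p under 0.05, limma had 1 member lower in Yy1-KO (Hoxa5) and 0 higher, beside 3.06% and 4.73% of all tested genes, while voom had 0 members in either direction, beside 8.14% of the genes it tested. The authors' deposited table had none of the 9 there, beside 8.02% of its genes.

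All 9 members nonetheless had a log2 fold change below 0, as did 48.1% of tested genes. Their median log2 fold change was -0.26, against 0.02 over all tested genes. The highest of the 6 values was in a WT library for all 9 members, and for 55.4% of tested genes. The count below 0 depended on single libraries: it was 5 of 9 without Yy1-KO replicate 1, the library with Yy1 inside the WT range. Leaving out WT replicate 3 gave 6 of 9 and leaving out WT replicate 2 gave 7 of 9. It was 8 of 9 without WT replicate 1 or Yy1-KO replicate 3, and 9 of 9 without Yy1-KO replicate 2. With all libraries, voom gave 8 of 9. The stem cell marker sum was also lower in Yy1-KO, as given above, and its part in these values was not tested. In bulk RNA, fewer cells of a type and less RNA per cell cannot be told apart.

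**Figure D2:**
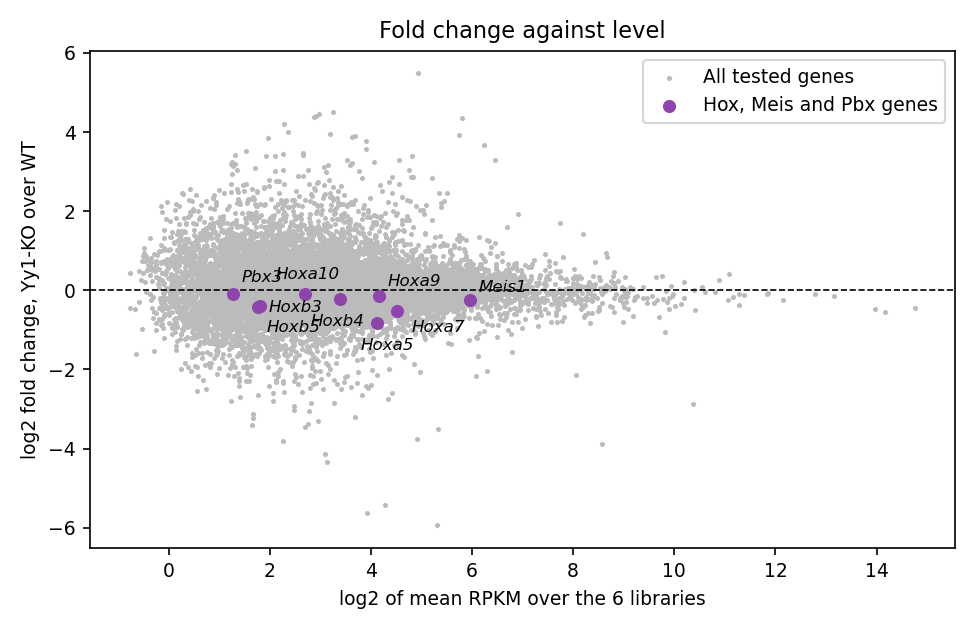
Log2 fold change of Yy1-KO over WT for all 13179 tested genes against the log2 of their mean RPKM, with the 9 members in purple. The members lie below 0, between -0.82 (Hoxa5) and -0.08 (Hoxa10), inside the cloud of all genes.

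Of the A cluster, Hoxa5 had the largest difference among the members. Hoxa5 (ENSMUSG00000038253, GRCm38 chromosome 6, 52201754 to 52204587) encodes a homeodomain factor that in cultured human progenitors favours the myeloid over the erythroid fate. It stood at 11.2, 18.1 and 8.95 RPKM in Yy1-KO and at 20.2, 19.3 and 27.2 RPKM in WT. All 3 Yy1-KO values were below all 3 WT values, with Yy1-KO replicate 2 close to WT replicate 2. The means were 12.8 ± 4.79 RPKM in Yy1-KO and 22.3 ± 4.30 RPKM in WT (SD, n = 3 each, as for all later means). Limma put the difference at -0.82 on the log2 scale (standard error 0.31, unadjusted p = 0.0307, adjusted p = 0.606). Without each library in turn it ranged from -1.10 to -0.61, and without Yy1-KO replicate 1 or WT replicate 3 the number of members at an unadjusted p under 0.05 was 0. Without WT replicate 1 it was 2, Hoxa5 and Hoxb4, and without Yy1-KO replicate 3 it was 1, Hoxa7 in place of Hoxa5. Recovered reads of Hoxa5 numbered 328 to 596 in Yy1-KO and 491 to 755 in WT.

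Hoxa7 (ENSMUSG00000038236, chromosome 6, 52214491 to 52221854), a gene that MLL fusion proteins activate in leukemia, stood at 14.2, 13.4 and 29.2 RPKM in Yy1-KO and at 23.4, 18.8 and 39.0 RPKM in WT. Replicate 3 was the highest library of each genotype, and the groups overlapped. On the log2 scale the difference was -0.53 (standard error 0.39, limma adjusted p = 0.785), and it was -0.24 without WT replicate 3 and -0.88 without Yy1-KO replicate 3. Of the exonic length of Hoxa7, 20.4% is shared with the antisense gene Hoxaas3, and no strand setting of the counting is stated.

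Hoxa9 (ENSMUSG00000038227, chromosome 6, 52223100 to 52231089), which supports the expansion of stem and progenitor cells and drives leukemia together with Meis1, stood at 13.3, 16.6 and 21.1 RPKM in Yy1-KO and at 18.9, 23.9 and 14.3 RPKM in WT. The groups overlapped over most of their range. The means were 16.98 ± 3.94 RPKM in Yy1-KO and 19.0 ± 4.78 RPKM in WT. The log2 fold change was -0.16 with a 95% interval of -0.81 to 0.50 (limma adjusted p = 0.924), which spans changes in both directions. It turned to 0.004 without Yy1-KO replicate 1 and to 0.02 without WT replicate 2.

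Hoxa10 (ENSMUSG00000000938, chromosome 6, 52231197 to 52240854), a neighbour of Hoxa9 that is active in myeloid and megakaryocyte progenitors, was the A cluster member nearest to 0. Its values were 5.34, 7.73 and 5.71 RPKM in Yy1-KO and 7.22, 4.92 and 8.00 RPKM in WT, with overlap throughout. The log2 fold change was -0.08 with a 95% interval of -0.89 to 0.72 (limma adjusted p = 0.966). It turned to 0.01 without Yy1-KO replicate 1 and to 0.05 without WT replicate 3.

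**Figure D3:**
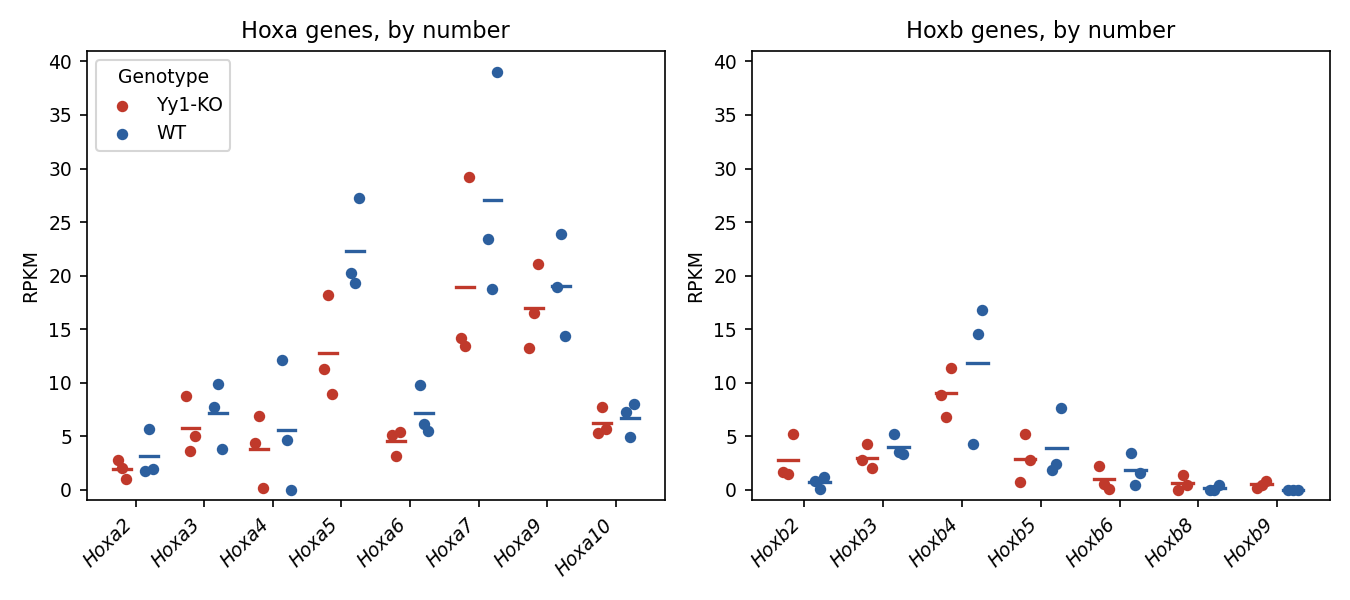
RPKM of the listed Hoxa genes (left) and Hoxb genes (right) in order of gene number, with Yy1-KO points left of WT points and bars at the group means (3 libraries each). The A cluster is highest at Hoxa5, Hoxa7 and Hoxa9, the B cluster at Hoxb4, and the Yy1-KO points of Hoxb2 (1.51 to 5.22 RPKM) lie above its WT points (0.107 to 1.22 RPKM).

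In the B cluster every listed gene had a lower mean level than Hoxa5, Hoxa7 and Hoxa9, and no member came near the threshold. Hoxb4 (ENSMUSG00000038692, chromosome 11, 96318267 to 96321638), whose forced expression expands stem cells in culture, stood at 8.82, 6.77 and 11.4 RPKM in Yy1-KO and at 4.28, 14.6 and 16.8 RPKM in WT. The WT libraries spread more widely than the Yy1-KO libraries, and WT replicate 1 had the lowest value of all 6. Between the genotypes the log2 difference was -0.21 (standard error 0.52, limma adjusted p = 0.945). It was -0.79 without WT replicate 1, and it turned to 0.13 without WT replicate 3 and to 0.03 without WT replicate 2.

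Hoxb3 (ENSMUSG00000048763, chromosome 11, 96323326 to 96347930), which acts partly in common with Hoxb4 in stem cells, stood at 2.78, 4.25 and 1.99 RPKM in Yy1-KO and at 5.17, 3.52 and 3.31 RPKM in WT. The groups overlapped through Yy1-KO replicate 2. Limma put the difference at -0.39 on the log2 scale (standard error 0.45, adjusted p = 0.865). Of its exonic length, 52.9% is shared with the antisense gene Hoxb3os, so the reads of this gene are uncertain. Hoxb3os itself averaged 1.51 ± 0.358 RPKM in Yy1-KO and 1.34 ± 0.371 RPKM in WT.

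Hoxb5 (ENSMUSG00000038700, chromosome 11, 96303336 to 96306121), a marker of long-term stem cells in the mouse, was the most variable member. It stood at 0.701, 5.21 and 2.74 RPKM in Yy1-KO and at 1.81, 2.36 and 7.65 RPKM in WT, from 34, 254 and 149 recovered reads in Yy1-KO and 65, 106 and 315 in WT. Each genotype had a library with several times the value of another, and the groups overlapped. On the log2 scale the difference was -0.42 (standard error 0.76, limma adjusted p = 0.924), and it turned to 0.19 without Yy1-KO replicate 1 and to 0.13 without WT replicate 3.

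Of the TALE partners, Meis1 (ENSMUSG00000020160, chromosome 11, 18879817 to 19018985) had little spread. It stood at 59.0, 52.9 and 58.1 RPKM in Yy1-KO and at 74.8, 65.2 and 63.6 RPKM in WT. All 3 Yy1-KO values were below all 3 WT values. The means were 56.7 ± 3.33 RPKM in Yy1-KO and 67.9 ± 6.06 RPKM in WT. The log2 fold change was -0.26 with a 95% interval of -0.63 to 0.12 (limma unadjusted p = 0.150, adjusted p = 0.748), and without each library in turn it ranged from -0.30 to -0.18. Hoxa5 and Meis1 were the 2 of 9 members with all Yy1-KO values below all WT values, a pattern found in 6.87% of tested genes. No member had the opposite pattern, found in 7.63%. Of the exonic length of Meis1, 18.3% is shared with other annotated genes.

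Pbx3 (ENSMUSG00000038718, chromosome 2, 34171457 to 34373142), a partner of HOXA9 and MEIS1 in leukemia, stood at 1.496, 3.69 and 1.39 RPKM in Yy1-KO and at 4.71, 2.42 and 0.786 RPKM in WT. The WT libraries alone spanned the whole Yy1-KO range. The log2 difference between the genotypes was -0.10 (standard error 0.68, limma adjusted p = 0.981), and it was -0.64 without WT replicate 3 and 0.37 without WT replicate 1. It was the member that turned sign most often, in 4 of the 14 alternatives that gave it a value.

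**Figure D4:**
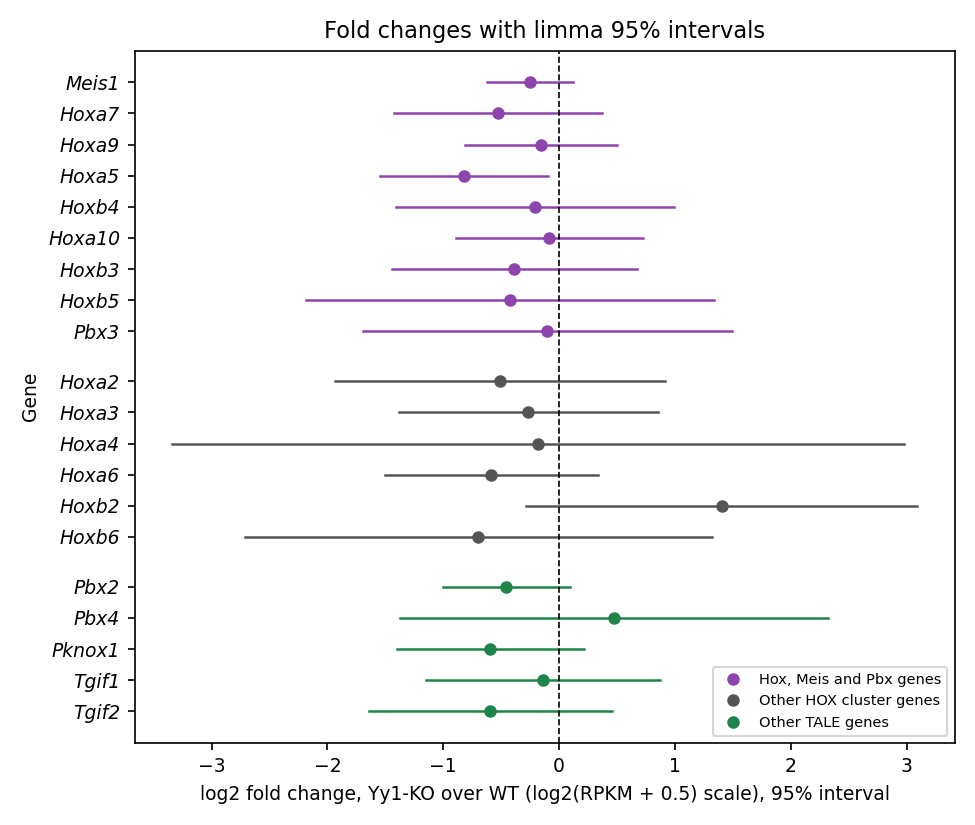
Log2 fold change of Yy1-KO over WT on the log2(RPKM + 0.5) scale for the 9 members, the other tested HOX cluster genes and 5 other TALE genes, with limma 95% intervals. Among the genes shown, the interval of Hoxa5 (-1.54 to -0.10) lies below 0 and all others span 0.

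The members did not vary as a block between libraries. Over the 6 libraries, the Pearson correlations of log2(RPKM + 0.5) between members ran from -0.82 (Hoxb4 and Pbx3) to 0.74 (Hoxb3 and Pbx3), with a median of 0.13 over 36 pairs, 24 of them above 0. These are descriptions over 6 libraries and include the difference between genotypes. WT replicate 3 held the highest value of 5 members and the lowest of Pbx3. Each Yy1-KO library held the lowest value of 2 members, and each WT library that of 1.

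**Figure D5:**
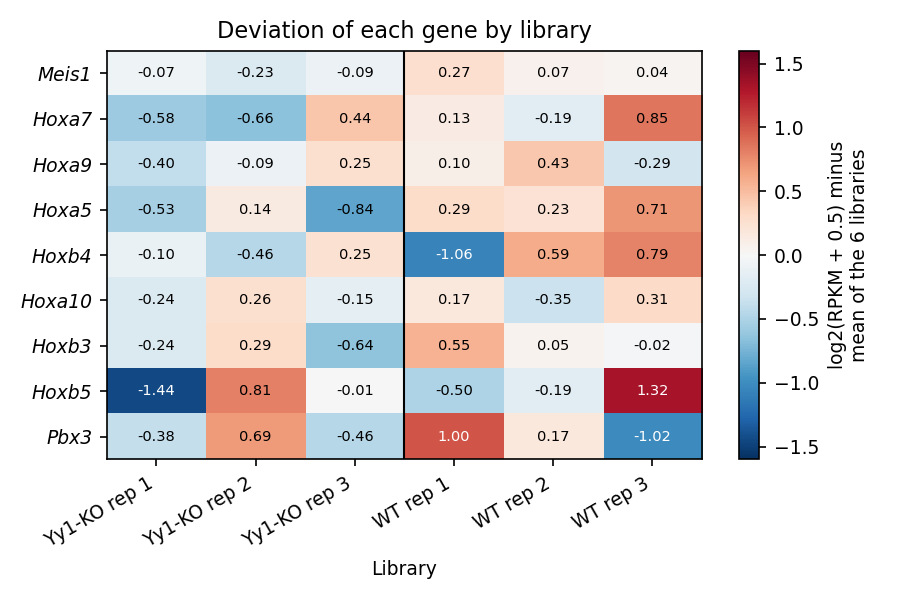
Deviation of each member from its mean over the 6 libraries, in log2(RPKM + 0.5), for Yy1-KO libraries (left) and WT libraries (right). Hoxb5 lies at -1.44 in Yy1-KO replicate 1 and at 1.32 in WT replicate 3, while Meis1 stays between -0.23 and 0.27.

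By the same correlation, among 6116 other tested genes with a mean of at least 10 RPKM, the genes most like Hoxa9 were Eya1 (r = 0.98), Snrnp48 (0.97) and Saraf (0.96). Those most like Hoxb4 were Cited2 (0.99), Dctn5 (0.97) and Imp3 (0.96), and those most like Meis1 were Rps20 (0.99), Atp5e (0.97) and Inpp5k (0.97). Cited2, a transcriptional co-regulator that stem cells need, stood at 55.5, 43.5 and 60.7 RPKM in Yy1-KO and at 31.8, 79.6 and 91.0 RPKM in WT. It shared with Hoxb4 the low value of WT replicate 1. With 6 libraries and 6116 candidates, correlations of this height carry no test.

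Beyond the members, 9 further HOX cluster genes were listed, so that 16 of the 39 mouse Hox genes of the GENCODE M21 annotation were present. These were 8 of 11 in the A cluster, 7 of 10 in the B cluster and 1 of 9 in the C cluster (Hoxc6), while none of the 9 genes of the D cluster was among the listed genes. The A cluster supplied 77.1% to 79.9% of the summed Hox RPKM in Yy1-KO libraries and 76.3% to 86.0% in WT libraries. Summed over the 8 listed Hoxa genes, the level was 65.0, 71.4 and 76.6 RPKM in Yy1-KO and 101, 93.3 and 99.8 RPKM in WT, with all Yy1-KO libraries below all WT libraries. Summed over the 7 listed Hoxb genes it was 16.3, 20.2 and 22.7 RPKM in Yy1-KO and 15.5, 20.96 and 31.0 RPKM in WT, with overlap. No test was made of these sums.

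Of the 6 further HOX cluster genes that passed the filter, 0 passed the test. Of these 6, 5 had a log2 fold change below 0, beside 48.1% of all tested genes, and the median was -0.39. Hoxa6 stood at 5.13, 3.14 and 5.39 RPKM in Yy1-KO and at 9.83, 6.11 and 5.49 RPKM in WT, without overlap, and its log2 fold change was -0.59 (limma adjusted p = 0.766). It was the 1 of these 6 genes lower in Yy1-KO without overlap, beside 6.87% of tested genes. Hoxa2, Hoxa3 and Hoxa4 had log2 fold changes of -0.51, -0.27 and -0.18, and Hoxb6 one of -0.70, all with overlapping groups. Hoxa4 was listed at 0 in WT replicate 3 and stood at 0.128 RPKM in Yy1-KO replicate 3, whereas its other values were 4.33 to 12.1 RPKM.

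Hoxb2 was the further HOX gene on the other side of 0. It stood at 1.65, 1.51 and 5.22 RPKM in Yy1-KO and at 0.777, 0.107 and 1.22 RPKM in WT, from 100, 92 and 356 recovered reads in Yy1-KO and 35, 6 and 63 in WT. All 3 Yy1-KO values were above all 3 WT values, a pattern found in 7.63% of tested genes. Limma put the difference at 1.40 on the log2 scale (standard error 0.73, unadjusted p = 0.0914, adjusted p = 0.703). Hoxb3os overlaps 27.3% of its exonic length.

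The remaining HOX cluster genes, Hoxb8, Hoxb9 and Hoxc6, were too low for the filter. Hoxb9 had 7, 22 and 42 recovered reads in Yy1-KO and 0 in each WT library. Against a floor of 3 reads over the WT group, which covers counting error only, its pooled Yy1-KO reads were at least 19.8-fold higher. The filter left Hoxb9 out of the main limma fit, and its adjusted p in the authors' deposited table was 0.631. Its highest level was 0.835 RPKM, in Yy1-KO replicate 3. Hoxb8 ranged from 0 to 1.41 RPKM in Yy1-KO and from 0 to 0.436 RPKM in WT, and Hoxc6 from 0 to 0.0712 RPKM in Yy1-KO and from 0 to 1.42 RPKM in WT.

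Of 8 other TALE homeobox genes examined, 7 were listed and 5 were tested, of which 0 passed. Of these 5, 4 had a log2 fold change below 0, beside 48.1% of all tested genes, with a median of -0.46. Pbx2 stood at 20.996, 20.8 and 13.5 RPKM in Yy1-KO and at 24.3, 25.1 and 25.7 RPKM in WT, without overlap, with a log2 difference of -0.46 (standard error 0.24, limma adjusted p = 0.701). Pknox1, a PBX partner also called Prep1, averaged 5.02 ± 0.253 RPKM in Yy1-KO and 8.05 ± 2.42 RPKM in WT, also without overlap, with a log2 fold change of -0.59 (limma adjusted p = 0.741). Pbx2 and Pknox1 were the 2 of these 5 genes lower in Yy1-KO without overlap, beside 6.87% of tested genes. Pbx4 had a log2 difference of 0.47 (standard error 0.79). Meis2 was listed at 0 in all Yy1-KO libraries and had 0, 60 and 141 recovered reads in WT. Pooled over the group, its WT reads lay at least 79.9-fold above the same floor for Yy1-KO. However, WT replicate 1 also had none, so this figure does not bound a difference between genotypes. Its adjusted p in the authors' deposited table was 0.631.

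Genes that keep HOX clusters active showed no common direction. Of 16 listed and tested regulators, 0 passed, 8 lay above and 8 below 0, and the median log2 fold change was 0.03. Psip1, which encodes the chromatin tether of the MLL complex, was the most abundant, at 64.8, 60.1 and 70.4 RPKM in Yy1-KO and at 56.8, 46.3 and 33.3 RPKM in WT, without overlap. On the log2 scale the difference was 0.54 (standard error 0.22, limma unadjusted p = 0.0436, adjusted p = 0.631). It was the 1 regulator at an unadjusted p under 0.05, beside 4.73% of all tested genes higher in Yy1-KO. That number was 0 with no variance trend, quantile scaling or the replicate block. It was also 0 on leaving out any single library other than WT replicate 1. Men1, the gene of the MLL partner menin, averaged 19.3 ± 1.51 RPKM in Yy1-KO and 15.2 ± 2.26 RPKM in WT (log2 fold change 0.34). Kmt2a, the gene of MLL itself, averaged 42.8 ± 3.91 RPKM in Yy1-KO and 50.3 ± 9.64 RPKM in WT (log2 fold change -0.21), and the methyltransferase gene Ash1l 22.8 ± 2.80 RPKM in Yy1-KO and 29.2 ± 1.40 RPKM in WT (log2 fold change -0.35). Without overlap, 2 of the 16 regulators were higher in Yy1-KO (Psip1 and Men1), beside 7.63% of tested genes. Lower without overlap was 1 (Ash1l), beside 6.87%.

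Of 14 genes described as HOXA9 or MEIS1 targets, 13 were tested and 0 passed. Of these 13, 10 lay below 0, beside 48.1% of all tested genes, and the median log2 fold change was -0.24. Sox4, a transcription factor gene of progenitors, stood at 80.4, 78.7 and 77.4 RPKM in Yy1-KO and at 117, 107 and 132 RPKM in WT, without overlap. The log2 difference was -0.58 (standard error 0.15, limma unadjusted p = 0.0061, adjusted p = 0.451). Trib2, a pseudokinase gene and a direct Meis1 target in mouse leukemia, stood at 1.55, 0.0133 and 0.298 RPKM in Yy1-KO and at 5.57, 4.79 and 3.58 RPKM in WT, a log2 difference of -2.43 (standard error 0.67, limma unadjusted p = 0.0073, adjusted p = 0.476). These were the 2 targets at an unadjusted p under 0.05, and both were lower in Yy1-KO, beside 3.06% of all tested genes. Trib2 met the filter of 1 RPKM through its WT libraries, and in Yy1-KO reached 1 RPKM in replicate 1 only. Counts that include Trib2 are therefore not independent of its difference. With the filter at 5 RPKM, which Trib2 does not meet, the number of targets at an unadjusted p under 0.05 was 1. Flt3, a receptor gene of multipotent progenitors, was the only other target without overlap, with 18.9 ± 3.23 RPKM in Yy1-KO and 26.3 ± 3.22 RPKM in WT (limma adjusted p = 0.664). With Trib2 included, Flt3 makes 3 of 13 targets lower in Yy1-KO without overlap, beside 6.87% of tested genes. It is named because of that count. Lmo2, the most abundant target, averaged 474 ± 70.2 RPKM in Yy1-KO and 535 ± 87.9 RPKM in WT. On the other side of 0 the smallest p-values belonged to the survival gene Bcl2, with a log2 fold change of 0.72, and to Id2, with 0.69, both with overlapping groups.

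The genes next to and within the Hoxa and Hoxb clusters gave 8 tested transcripts, of which 0 passed, with a median log2 fold change of -0.10. Skap2, beside the A cluster, averaged 16.8 ± 0.626 RPKM in Yy1-KO and 21.3 ± 3.94 RPKM in WT, and Cbx1, beside the B cluster, 36.3 ± 6.72 RPKM in Yy1-KO and 29.4 ± 6.54 RPKM in WT, each with overlap. Gm11539, a processed pseudogene inside the B cluster whose reads may belong to its parent gene, was the most abundant at 158 ± 35.1 RPKM in Yy1-KO and 161 ± 23.7 RPKM in WT. The non-coding Hoxaas2 had 0 recovered reads in each Yy1-KO library and 33, 0 and 124 in WT. Pooled over the group, its WT reads lay at least 62.4-fold above the floor of 3 reads for Yy1-KO, which covers counting error only. Its adjusted p in the authors' deposited table was 0.678. However, WT replicate 2 also had none, so the pooled figure does not bound a difference between genotypes. Hoxb5os was listed at 0 in Yy1-KO replicates 1 and 3 and in WT replicate 1, and stood at 2.14 RPKM in Yy1-KO replicate 2 and at 6.15 and 2.23 RPKM in WT replicates 2 and 3.

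Marker sums of other cell types are given beside these values. The 6 megakaryocyte and platelet markers, all listed, summed to 51.3 to 104 RPKM in Yy1-KO and 19.5 to 36.5 RPKM in WT. The 5 listed of 6 progenitor markers summed to 63.2 to 73.8 RPKM in Yy1-KO and 78.7 to 105 RPKM in WT. Granulocyte markers, with 6 of 7 listed, overlapped at 31.5 to 239 RPKM in Yy1-KO and 17.5 to 147 RPKM in WT. Erythroid markers, with 4 of 6 listed and Klf1 not among them, summed to 7.90 to 29.5 RPKM in Yy1-KO and 2.85 to 15.8 RPKM in WT. Monocyte markers, with 2 of 5 listed and Csf1r, Cd14 and Adgre1 not among them, summed to 71.2 to 108 RPKM in Yy1-KO and 84.1 to 130 RPKM in WT. No listed marker was at 0 in every library. The part of these cells in the values of the Hox, Meis and Pbx genes was not tested.

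In the authors' deposited table all 9 members also had a log2 fold change below 0, from -0.86 for Hoxa5 to -0.04 for Pbx3, with a median of -0.26 against 0.04 over all its genes. The smallest adjusted p among them in the authors' deposited table was 0.626, for Hoxa5, followed by 0.644 for Meis1. The authors' deposited table and the limma fit rest on the same 6 libraries.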

How the data were processed

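Members and lists were chosen with earlier results of these data known. The authors deposited RPKM values for 6 libraries, with their own log2 fold change, p-value and adjusted p-value per gene; per the submitters' processing notes they used mm10, Subread, featureCounts, edgeR and limma, with roles and versions not given in the sources used here. Multiplied by GENCODE M21 exonic length (GRCm38), RPKM gave whole reads within 0.02 in all 6 libraries for 71.7% of 15465 genes, all 9 members included. Read floors cover counting error only, and the kit (Ovation RNA-Seq System V2) amplifies RNA before sequencing. Genotypes were compared with limma 3.58.1 (R 4.3.3, variance trend) on log2(RPKM + 0.5), which understates the change of low genes, requiring 1 RPKM or more in 3 or more libraries. Tested on simulated reads of this comparison (up to 12654 genes), it recovered 2.67% of the genes given a log2 change of 1 and 35.3% of those given a change of 2, where voom recovered 22.6% and 64.9%. Named beside the members were the 2 genes of smallest p per direction and the most abundant gene of each list, all other HOX genes, and the 3 genes most correlated with Hoxa9, Hoxb4 and Meis1. Alternatives were other pseudocounts (0.1 and 1), other filters (none and 5 RPKM), no variance trend, quantile and median scaling, a replicate block, limma-voom and leaving out each library. Some genes of the lists of other TALE genes and cell type markers are not reported here.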

Additional observations from a re-analysis of the deposited data

How the results depend on the processing

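No member was called under any of the 15 alternatives, and the members' median stayed below 0 on the log2 scale, from -0.33 to -0.20. Over all tested genes, 0 passed in limma, against 6 in limma-voom on recovered reads, and leaving out 1 library gave 0 to 1, with 1 call without WT replicate 1 and 1 without WT replicate 2. The sign of single members turned in limma-voom (Pbx3, 0.019) and on leaving out libraries: the range was -0.28 to 0.048 for Hoxa10, -0.34 to 0.019 for Hoxa9, -0.79 to 0.13 for Hoxb4, -0.94 to 0.19 for Hoxb5 and -0.64 to 0.37 for Pbx3, with Pbx3 at 0.06 without Yy1-KO replicate 1 and 0.10 without Yy1-KO replicate 3. Hoxa5, Hoxa7, Hoxb3 and Meis1 kept their sign in each alternative that tested them. Fits that leave out a library also hold fewer libraries, and the cause of these turns was not tested. The filter at 5 RPKM left 6 members. The replicate block, fitted because both genotypes use the numbers 1 to 3, called 0 members and 0 genes and left the median at -0.26, and the 1 member at an unadjusted p under 0.05 was Hoxa7 in place of Hoxa5. Deviations of same-numbered libraries correlated at 0.02, 0.06 and 0.05, and those of different-numbered libraries at -0.08 to 0.04. Deviations were taken within groups of 3 libraries, so these correlations depend on each other and cannot exclude pairing. The main fit does not treat the numbers as pairs. The fewest recovered reads of a member in a library were 34, for Hoxb5 in Yy1-KO replicate 1, and whether depth limits the comparison was not tested.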
